A study of Mus musculus with 2 samples.

Results

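A set of 10 genes that mark oligodendrocyte precursor cells, or that direct their identity, was followed in ribosome-bound RNA of the adult mouse cerebral cortex. The genes were chosen by name, as Olig1, Olig2, Sox10, Sox8, Nkx2-2, Gpr17, Neu4, C1ql1, Pcdh15 and Lhfpl3, and all 10 had a row among the 32531 genes listed. The RNA came from untreated adult mice of the line Gdnf-EGFP/Rpl10a (ES2243). In that line the ribosomal protein Rpl10a carries a fluorescent EGFP tag and follows the regulatory sequences of Gdnf, the gene of a neurotrophic factor, and tagged polysomes are pulled from the cortical homogenate with an antibody (translating ribosome affinity purification). The series describes the profiled cells as pericytes. Both libraries, IP1 and IP2, were immunopurified samples of the line, so there was 1 group and no contrast between conditions. The labels do not say whether the libraries came from separate animals or from pools, so the spread between them may be technical.

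Oligodendrocyte precursors are glial cells that persist in the adult brain, divide, and give rise to the oligodendrocytes that wrap axons in myelin. Their fate is set by a small circuit of transcription factors. OLIG2 and SOX10 hold the lineage, OLIG1 and NKX2-2 act as cells move towards myelination, and SOX8 shares targets with SOX10. The receptor gene Gpr17 is switched on for a short time as precursors commit to differentiate, and Pcdh15, Lhfpl3, C1ql1 and Neu4 are genes by which precursors are recognised in brain transcriptomes.

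Reads counted in genes numbered 65200231 in IP1 and 72732502 in IP2. Levels are given as CPM, the reads of a gene for every 1000000 reads counted in genes. A count of 0 allows up to 3 reads, or 0.046 CPM (IP1) and 0.041 CPM (IP2). No transcript lengths were used, so a CPM value is set against the same gene in the other library, not against another gene. Where 2 values stand together, the first is of IP1 and the other of IP2. Unpurified cortex was not analysed here. Levels are therefore not enrichments, and RNA on tagged ribosomes of precursor cells and untagged RNA carried through the purification cannot be told apart. Fewer cells of a type and less RNA per cell cannot be told apart either. Markers of the labelled cell type were present: all 14 pericyte and mural genes reached 10 CPM in both libraries. So did all 12 pan-neuronal genes and 10 of 12 astrocyte genes, against 2 of 12 endothelial and 0 of 10 microglial genes.

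Promoter sequences of transcription factor genes are shown because these genes form the circuit that sets the precursor fate. RefSeq promoters (GRCm38.p6, 250 bases before to 50 bases after the start) matched 6 of the 10 genes, and those of the 3 transcription factor genes among them are printed here. Capitals mark ACAAT on either strand, the core bound by SOX proteins, and CANNTG, the E-box bound by basic helix-loop-helix proteins such as OLIG1 and OLIG2. Both strands were searched, and the motifs may overlap each other. The windows are chr16:91225300-91225599 (plus strand) for Olig2, chr17:25570637-25570936 (minus strand) for Sox8 and chr2:147186353-147186652 (minus strand) for Nkx2-2. The Nkx2-2 window lies inside the span of its gene, which ends at 147195434, so it is at an internal start.
Olig2: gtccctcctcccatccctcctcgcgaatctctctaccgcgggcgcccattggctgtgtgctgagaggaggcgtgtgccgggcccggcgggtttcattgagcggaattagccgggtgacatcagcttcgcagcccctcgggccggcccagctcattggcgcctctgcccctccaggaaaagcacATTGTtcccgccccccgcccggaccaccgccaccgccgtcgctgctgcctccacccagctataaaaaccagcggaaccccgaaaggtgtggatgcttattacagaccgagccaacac
Sox8: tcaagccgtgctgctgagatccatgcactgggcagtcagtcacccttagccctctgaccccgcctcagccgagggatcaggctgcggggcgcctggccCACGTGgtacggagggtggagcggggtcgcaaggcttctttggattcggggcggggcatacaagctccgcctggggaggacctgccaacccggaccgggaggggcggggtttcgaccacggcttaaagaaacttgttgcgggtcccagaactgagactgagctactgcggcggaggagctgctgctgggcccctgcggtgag
Nkx2-2: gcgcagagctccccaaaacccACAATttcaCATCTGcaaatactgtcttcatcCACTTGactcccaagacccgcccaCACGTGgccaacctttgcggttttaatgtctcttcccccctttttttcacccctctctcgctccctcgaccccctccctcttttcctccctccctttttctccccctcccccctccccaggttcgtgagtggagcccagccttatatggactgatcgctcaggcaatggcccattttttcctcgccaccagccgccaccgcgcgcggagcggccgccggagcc

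The Olig2 window held 1 Sox core and 0 E-boxes, the Sox8 window 0 and 1, and the Nkx2-2 window 1 and 3. Among all 32851 promoter windows of this length, 31.0% held a Sox core and 72.3% an E-box. A match is a description of letters and not a binding site. These windows were rich in G and C, at 65% for Olig2, 66.3% for Sox8 and 59.7% for Nkx2-2, against a median of 52.7% over all windows. They held 25, 21 and 17 CpG dinucleotides, against a median of 7. The windows of Neu4, Pcdh15 and Lhfpl3 held 6, 8 and 12 CpG dinucleotides, nearer to that median. Their G and C content was 55.3%, 50.7% and 66%, so the Lhfpl3 window was about as rich as those of Olig2 and Sox8. The Pcdh15 window, from 73821617, also lies inside the span of its gene, which starts at 73096277.

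All 10 genes were well counted. Each reached 10 CPM in both libraries, as 28.3% of all genes listed did, and the lowest value of any of them in any library was 36.8 CPM. The lowest count behind a value was 2675 reads, for Nkx2-2 in IP2. Their median was 186 (IP1) and 276 CPM (IP2), beside 9.52 and 9.20 CPM over the 19580 genes with at least 1 count. Together the 10 genes took 0.276% of the reads in genes in IP1 and 0.306% in IP2. Without Gpr17, the gene that differed most between the libraries, the medians were 189 and 232 CPM.

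Olig1 and Olig2 encode related basic helix-loop-helix factors and lie side by side on chromosome 16, Olig2 at 91225550 to 91228677 and Olig1 at 91269769 to 91271939 (mm10), with 41.1 kb between them. No other gene of the files lies within 50 kb of the pair. Olig1 was at 985 (IP1) and 913 CPM (IP2), a mean of 949 ± 50.8 CPM (SD, n = 2). Olig2 was at 344 and 319.8 CPM, a mean of 332 ± 17.3 CPM (SD, n = 2). Both were slightly lower in IP2, at 0.927 of the IP1 level for Olig1 and 0.929 for Olig2. The pair kept nearly the same proportion of reads, with 286.2 Olig1 reads for every 100 Olig2 reads in IP1 and 285.6 in IP2. This proportion does not depend on how the libraries are scaled.

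Sox10 (chromosome 15, 79154913 to 79164490) and Sox8 (chromosome 17, 25565893 to 25570686) encode SoxE factors of the lineage. Sox10 was at 352 (IP1) and 367.5 CPM (IP2), a mean of 359.9 ± 10.7 CPM (SD, n = 2). Sox8 was at 342 and 381 CPM, a mean of 361 ± 27.2 CPM (SD, n = 2). Both were a little higher in IP2, by 1.04-fold for Sox10 and 1.11-fold for Sox8. Sox9, the third SoxE gene and one that astrocytes also use, was at 79.6 and 71.1 CPM. Sox10 also marks the neural crest, and the neural crest factor gene Foxd3 had no read in either library.

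Nkx2-2, a homeodomain factor gene (chromosome 2, 147176485 to 147195434), had the lowest counts of the 10 genes. It was at 42.5 (IP1) and 36.8 CPM (IP2), a mean of 39.7 ± 4.08 CPM (SD, n = 2). The noncoding genes Nkx2-2os and 6430503K07Rik overlap its span and were counted at 1.61 and 0.715 CPM and at 3.85 and 1.92 CPM in IP1 and IP2. Reads matching several genes were not assigned, so part of the Nkx2-2 reads may be missing from its count. The strand setting is not given in the sources used here, so sense and antisense reads cannot be told apart at this locus.

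Gpr17 encodes an orphan receptor related to the P2Y and cysteinyl leukotriene receptors and lies on chromosome 18. It was at 183 CPM in IP1, from 11903 reads, and at 427 CPM in IP2, from 31023 reads, a mean of 305 ± 172.5 CPM (SD, n = 2). The level in IP2 was 2.34-fold that in IP1 (exact 95% interval 2.29 to 2.39, counting error only). For every 100 Sox10 reads there were 51.8 Gpr17 reads in IP1 and 116 in IP2, a measure free of the scaling. Lims2, an adaptor gene whose span overlaps that of Gpr17, was at 58.6 and 54.5 CPM, a ratio of 0.93. Reads matching both genes were not assigned to either. With 1 library on each side, the difference between IP1 and IP2 has no replicate check.

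Neu4, a sialidase gene (chromosome 1, 94020493 to 94028334), was at 164 (IP1) and 187 CPM (IP2), a mean of 175 ± 15.8 CPM (SD, n = 2). C1ql1, which encodes a secreted C1q-like protein that binds the adhesion receptor ADGRB3 (chromosome 11, 102939264 to 102946716), was at 65.3 and 90.9 CPM, a mean of 78.1 ± 18.1 CPM (SD, n = 2). After Gpr17 it had the widest ratio of the list, 1.39-fold (exact 95% interval 1.34 to 1.45, counting error only). Both genes were counted higher in IP2.

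Pcdh15 and Lhfpl3 are genes of very long span. Pcdh15 (chromosome 10, 73096277 to 74649831), a protocadherin gene known from the tip links of hair cells, was at 94.8 (IP1) and 106 CPM (IP2), a mean of 100.3 ± 7.76 CPM (SD, n = 2). Lhfpl3 (chromosome 5, 22746054 to 23275597), a gene of tetraspan membrane proteins, was at 189 and 232 CPM, a mean of 211 ± 30.4 CPM (SD, n = 2). The spans cover 1554 and 529.5 kb, while the Olig1 span covers 2.17 kb. The noncoding gene A930003O13Rik lies in the Lhfpl3 span and was at 2.85 and 2.64 CPM.

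**Figure D1:**
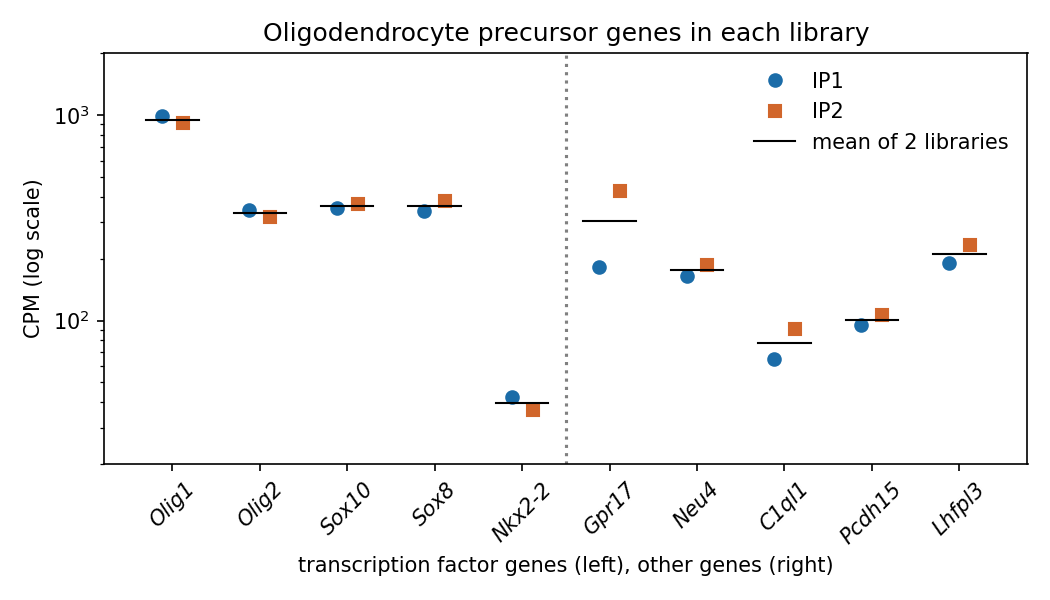
CPM (log axis) of each of the 10 genes in IP1 (circles) and IP2 (squares), with a line at the mean of the 2 libraries and a dotted line between transcription factor genes and the others. The 2 points lie close together for every gene but Gpr17, at 183 and 427 CPM, and the C1ql1 points at 65.3 and 90.9 CPM are the next furthest apart.

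The close relatives of these genes show which family member the reads name. In the OLIG branch, Olig3 and Bhlhe23 had no read in either library, and Bhlhe22, a gene used in neurons, was at 17.1 and 12.6 CPM. Of the other Nkx2 genes, Nkx2-4, Nkx2-5 and Nkx2-6 had no read and Nkx2-3 had 1. Nkx2-9 was at 0.123 and 0.509 CPM. Nkx2-1, a gene of ventral forebrain and interneuron lineages, was at 5.67 (IP1) and 11.3 CPM (IP2).

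Among sialidase genes, the lysosomal Neu1 was at 15.05 (IP1) and 20.5 CPM (IP2), Neu3 at 4.48 and 3.99 CPM, and Neu2 at 1.92 and 0.454 CPM. C1ql2 (2.94 and 3.53 CPM) and C1ql3 (22.6 and 26.4 CPM) were counted beside C1ql1, and C1ql4 had no read. In the LHFPL family, Lhfp was at 67.4 and 83.9 CPM, Lhfpl2 at 39.95 and 54.5 CPM and Lhfpl4, a partner of GABA-A receptors at synapses, at 64.5 and 85.2 CPM. Lhfpl5 stayed at 0.414 and 0.316 CPM, and Lhfpl1 had 0 reads in IP1 and 2 in IP2.

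**Figure D2:**
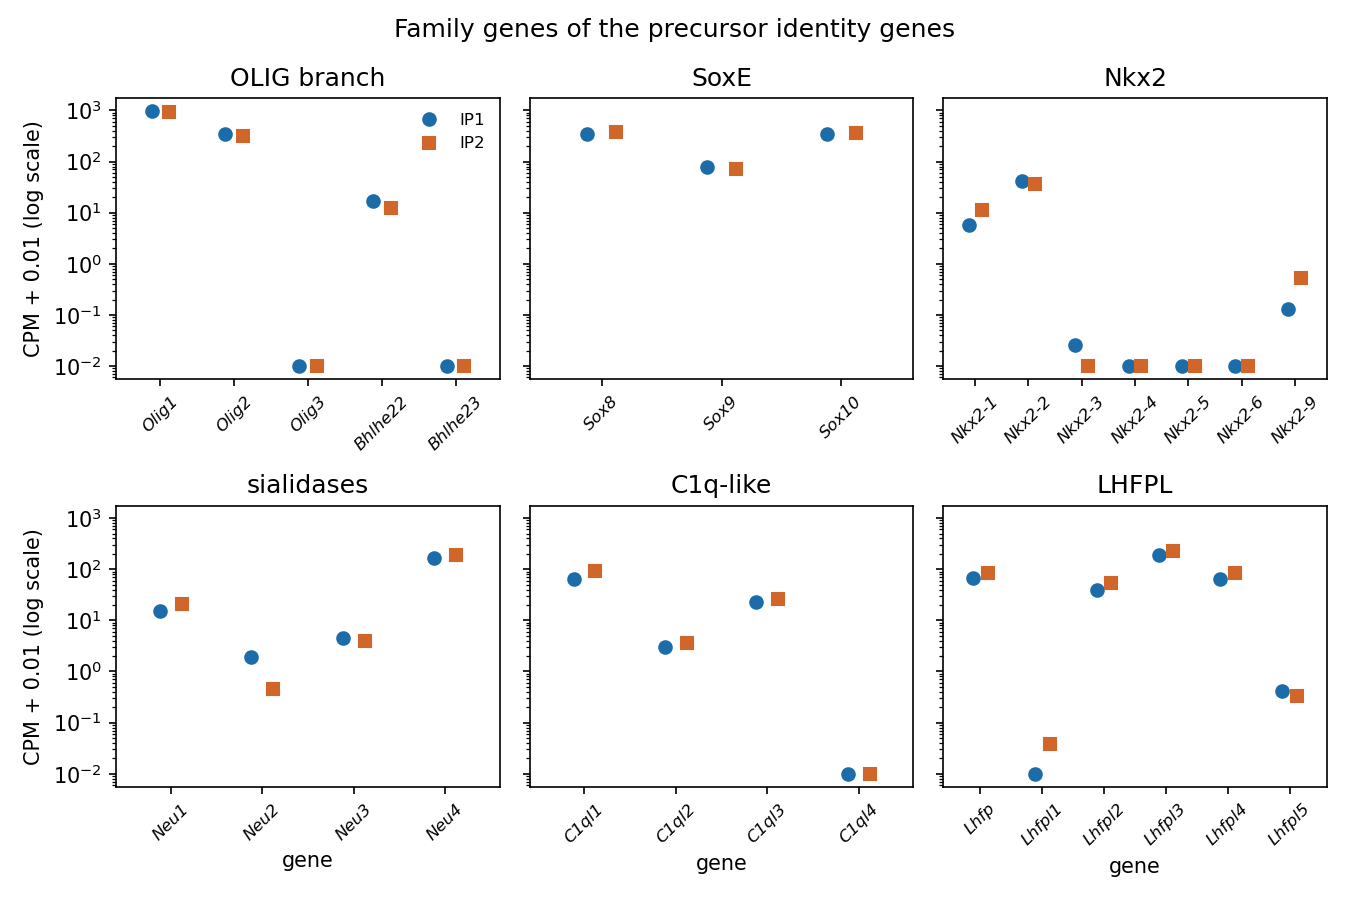
CPM plus 0.01 (log axis) of every gene of 6 families in IP1 (circles) and IP2 (squares). Points on the lowest level have no read, as for Olig3, Bhlhe23, Nkx2-4 and C1ql4, and no transcript length was used, so heights are compared between libraries and not between genes.

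Several hair cell partners of protocadherin 15 had few reads or none. Cdh23, which forms the tip link with it, had 7 reads in IP1 and 0 in IP2. The scaffold gene Ush1c had 6 and 0, the channel gene Tmc1 4 and 0, and Tmc2 none. Tmie (10.9 and 9.98 CPM), Myo7a (5.69 and 6.59 CPM) and Cib2 (5.61 and 5.40 CPM) were counted at low levels. Pcdh15 was the 1 gene of this complex list of 11 to reach 10 CPM in both libraries.

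Of Gpr17 and the receptor genes related to it, 9 had 10 or more counts. Of these 9, 3 were higher in IP1 by 1.5-fold and 1, Gpr17 itself, in IP2. The shares over all genes with 10 or more counts were 18.1% and 13.7%. The 3 were Cysltr1, with 69 reads in IP1 and 1 in IP2, P2ry2 (2.53 and 1.66 CPM) and P2ry13 (2.09 and 0.907 CPM), all of low level. P2ry1 was at 43.2 (IP1) and 56.0 CPM (IP2), P2ry14 at 44.5 and 48.4 CPM, and the leukotriene receptor gene Cysltr2 at 21.4 and 31.1 CPM. P2ry6 was at 1.90 and 1.47 CPM and the microglial receptor gene P2ry12 at 6.66 and 5.72 CPM, and P2ry4 and P2ry10 had no read.

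Between the libraries, 9 of the 10 genes differed by less than 1.5-fold. Gpr17 was higher in IP2 by at least that ratio, which 13.7% of the 17306 genes with 10 or more counts also reached in that direction. No gene of the 10 was higher in IP1 by 1.5-fold, against 18.1% of those genes. Low counts widen the ratios of many genes, so the shares were also taken over the 9656 genes whose mean was 10 CPM or more, where they were 6.56% and 4.42%. Of these 9656 genes, 34 had a ratio at or above that of Gpr17, itself included. A share of 1 in 10 is near these shares and is not a result about the list. The 10 genes had a median log2 ratio (IP2 over IP1) of 0.16, and all 17306 genes one of -0.06.

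By kind of gene, the ratios were as follows. The 5 transcription factor genes lay between log2 ratios of -0.21 (Nkx2-2) and 0.15 (Sox8), with 2 above and 3 below 0. All 5 genes of surface, secreted or sialidase proteins were above 0, from 0.16 (Pcdh15) to 1.22 (Gpr17). The grouping was made after the values were seen and was not tested.

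**Figure D3:**
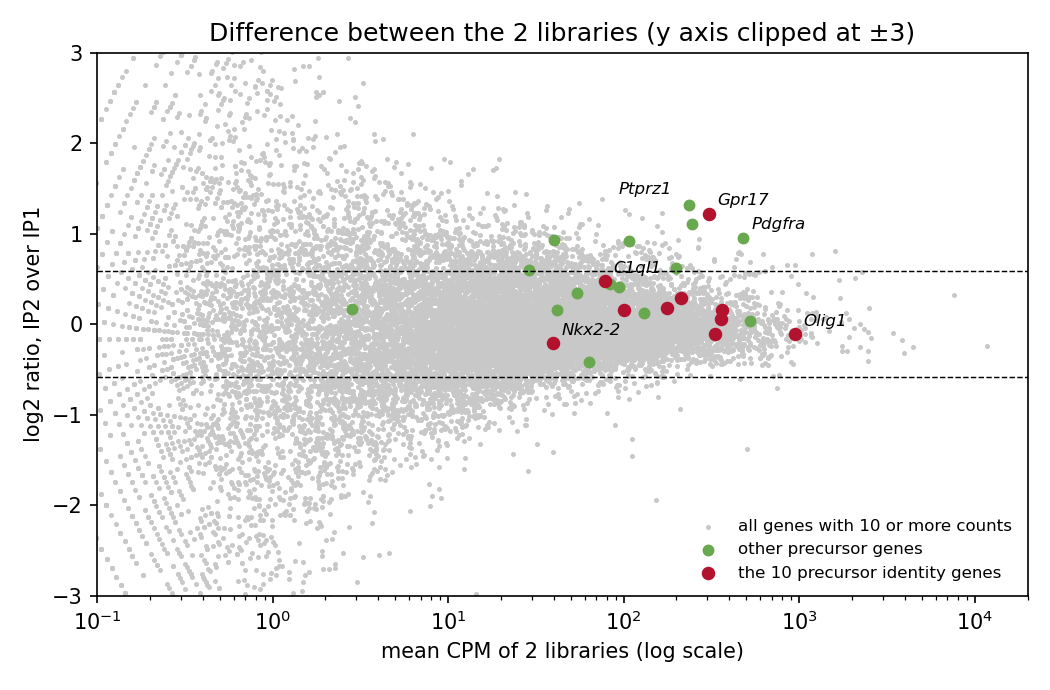
Log2 ratio of IP2 over IP1 against the mean CPM (log axis) for all genes with 10 or more counts (grey), the 10 precursor identity genes (red) and 15 other precursor genes (green), with dashed lines at a ratio of 1.5 and the vertical axis limited to ±3 and the horizontal axis starting at 0.1 CPM. Gpr17 lies at 1.22 beside Ptprz1 and Pdgfra, while the other 9 red points lie between -0.21 and 0.48.

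Other genes of precursor cells were counted beside the 10. Over all genes with 10 or more counts, 13.7% were higher in IP2 by 1.5-fold and 18.1% in IP1. Over those with a mean of 10 CPM or more, the shares were 6.56% and 4.42%. Of 15 receptor, proteoglycan and adhesion genes of precursors, 7 were higher in IP2 by 1.5-fold or more and 0 were higher in IP1. They were Pdgfra, the receptor for the main precursor mitogen (326 and 632 CPM), the proteoglycan genes Cspg4 (74.0 and 140 CPM), Ptprz1 (134 and 336 CPM), Bcan (27.7 and 52.9 CPM) and Cspg5 (156 and 240.5 CPM), the xylosyltransferase gene Xylt1 (23.0 and 34.8 CPM) and the sulfatase gene Sulf2 (155 and 334 CPM). Gpr17 reads per 100 Pdgfra reads were 56.0 in IP1 and 67.5 in IP2, a smaller change than against Sox10. Whether the share of 7 in 15 differs from that of the 10 identity genes was not tested. Some of these genes serve other cells too: Pdgfra is also on the fibroblast list and Cspg4 on the pericyte list. The others are on no list of another cell type here, which does not make them particular to precursors.

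The remaining 8 of the 15 lay within 1.5-fold. Sox6 (519.5 and 532 CPM), whose product holds back terminal differentiation, Nxph1 (124 and 136 CPM) and Cacng4 (39.4 and 44.1 CPM) were near equal in both libraries. Vcan (70.3 and 96.1 CPM), Tnr (80.4 and 107 CPM) and Megf11 (47.7 and 60.6 CPM) were somewhat higher in IP2. Matn4 was at 2.65 and 2.98 CPM and was the 1 gene of the 15 below 10 CPM.

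Genes of later stages and other regulators of the lineage came next. Their counts stand beside the same shares over all genes with 10 or more counts, 13.7% higher in IP2 and 18.1% higher in IP1. Of 10 genes of committed precursors, the stage at which Gpr17 is used, 0 differed by 1.5-fold in either direction. They included Sirt2 (767 and 679 CPM), Bcas1 (404 and 378 CPM), Fyn (284 and 319 CPM), Tcf7l2 (137 and 141 CPM) and Bmp4 (91.0 and 107 CPM). Of 14 genes of myelinating oligodendrocytes, 3 were higher in IP2 by that ratio (Mag, Cldn11 and Trf) and 1 in IP1 (Aspa). Cnp (477 and 432 CPM), Mbp (460 and 397 CPM) and Mobp (362 and 404 CPM) were within it. Of 19 other transcription regulators of the lineage, 18 lay within 1.5-fold and Hes1, a Notch target, was higher in IP1 (48.3 and 26.2 CPM). Zeb2 (801 and 680 CPM), Nfia (760 and 744 CPM) and Nfib (332 and 337 CPM) were among the 18.

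Some markers of other cells also differed in the direction of Gpr17. Over all genes with 10 or more counts, 13.7% were higher in IP2 by 1.5-fold and 18.1% in IP1. Over those with a mean of 10 CPM or more, the shares were 6.56% and 4.42%. Of 12 astrocyte genes, 5 were higher in IP2 by 1.5-fold (Aqp4, Gja1, Slc1a2, Slc1a3 and Fgfr3) and 0 in IP1, and the summed level of the list was 3737 (IP1) and 5331 CPM (IP2). For fibroblast genes the count was 4 of 10 (Col1a1, Col1a2, Pdgfra and Fbln1) against 0, with summed levels of 3278 and 4736 CPM. For pericyte genes it was 4 of 14 (Abcc9, Anpep, Notch3 and Cspg4) against 0, with summed levels of 6830 and 6721 CPM. Rgs5 alone made up most of these sums, at 4841 and 4061 CPM, and the median log2 ratio of the 14 genes was 0.43. Of the 11 endothelial genes with 10 or more counts, 6 were higher in IP2 and 1 in IP1, at summed levels of 90.7 and 102 CPM. Endothelial genes were uneven in level. Cldn5 had 5 reads in IP1 and 0 in IP2. The 2 that reached 10 CPM in both libraries were Emcn (42.1 and 33.3 CPM) and Slc2a1 (15.3 and 24.1 CPM). For microglial genes it was 3 (C1qa, Csf1r and Trem2) against 1 (C1qb) of 10, at summed levels of 33.3 and 38.2 CPM. None of the 12 pan-neuronal or 9 excitatory neuron genes differed by 1.5-fold, with summed levels of 16080 and 14131 CPM and of 1787 and 1608 CPM. Snap25 alone made up most of the pan-neuronal sums, at 12770 and 10795 CPM, and the median log2 ratio of the 12 genes was -0.08. Inhibitory neuron genes counted 1 in each direction of 10 (Reln in IP2, Pvalb in IP1), at 1022 and 1016 CPM. The part of these cells in the Gpr17 difference was not tested.

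**Figure D4:**
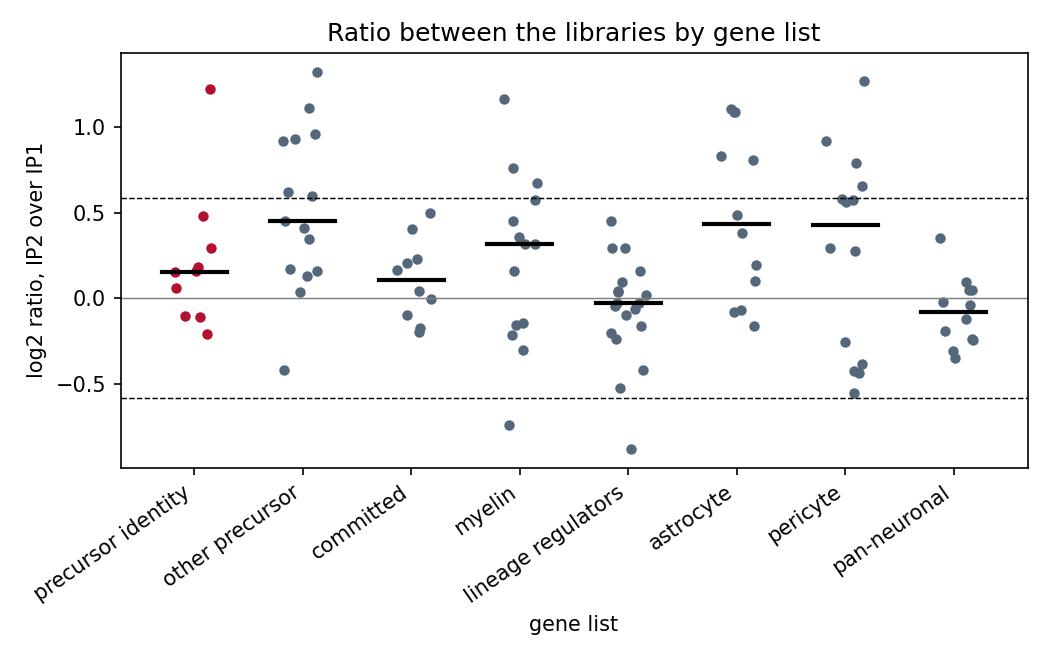
Log2 ratio of IP2 over IP1 for each gene (points) of 8 lists, with the list median (thick bar) and dashed lines at a ratio of 1.5. The median was 0.16 for the 10 identity genes, 0.45 for other precursor genes, 0.10 for committed precursor genes, 0.43 for astrocyte and pericyte genes and -0.08 for pan-neuronal genes.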

How the data were processed

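RNA sequencing of 2 immunopurified libraries of 1 group was used. Alignment used STAR 2.0.0e with mm10 and counting used HTSeq, per the submitters' processing notes. Neither the annotation nor the strand setting is given in the sources used here. The deposited files hold raw read counts per gene symbol. Summary lines (1.64% and 1.60% of listed reads matched several genes, 31.2% and 31.5% aligned to several places in IP1 and IP2) and a row named unknown with 1 and 0 reads were left out.

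Counts were scaled to CPM by the total of all gene counts. The ratio is log2 of IP2 over IP1, after adding a prior of 0.5 counts to each, over genes with 10 or more counts in total, called at 1.5-fold or more. No p-value was computed, since 1 library stood on each side. Intervals are exact 95% binomial intervals and, like the limit for a gene without reads, cover counting error only, as reads carry no molecular identifiers. Coordinates and promoters are from RefSeq (GRCm38.p6). TMM from edgeR 4.0.16 and size factors from DESeq2 1.42.0 were alternatives, in R 4.3.3, with scipy 1.17.1, pandas 2.3.3 and numpy 2.4.6 in Python 3.11.15.

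The genes and lists were chosen with earlier results of these data known. Named were the 10 genes, their family genes, the other precursor genes and, of other lineage lists, the 4 highest members and those without reads; lists of other cells are given by counts and sums. As no transcript lengths were at hand, high members were taken by CPM, not per length, and some are not reported here. Bmp4, Cldn5, Emcn, Slc2a1, Rgs5, Snap25, genes overlapping a member and genes named for a ratio of 1.5 or more were named after their values were seen. So were the 4 highest Schwann cell and neural crest genes.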

Additional observations from a re-analysis of the deposited data

How the results depend on the processing

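With 1 group, no result rests on a p-value. The median of the 10 genes, 231 CPM as the mean of both libraries, was 231.8 with TMM, 231.9 with DESeq2 size factors and 240.2 without the ribosomal RNA precursor Rn45s in the total. With a single library it ranged from 186 to 276 CPM. All 10 genes reached 10 CPM with TMM scaling too, and 9 reached 50 CPM, Nkx2-2 being the exception. The count of 1 gene higher in IP2 by 1.5-fold and 0 in IP1 was the same with TMM, DESeq2 size factors, the total without Rn45s, a prior of 5 counts, no filter beyond 1 count, a fold of 2, and over genes whose mean was 10 CPM or more, a setting chosen after seeing the data. The Gpr17 ratio was 2.42-fold with TMM, 2.43-fold with DESeq2 and 2.34-fold without Rn45s. Under these 3 scalings 7 of the 10 genes stayed above a log2 ratio of 0 and 3 below it. Levels per kilobase were not run, since no transcript lengths were used here. No paired analysis was possible because the series has 1 group. Depth did not limit the 10 genes, whose lowest count was 2675 reads; the number of libraries did.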

Other observations

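Genes that act with the identity genes in signalling and chromatin control were also counted. Pdgfa, the ligand of the precursor mitogen receptor, was at 42.1 (IP1) and 47.6 CPM (IP2), and the C1ql1 receptor gene Adgrb3 at 56.5 and 63.0 CPM. The fibroblast growth factor receptor genes Fgfr1 (57.1 and 71.9 CPM) and Fgfr2 (68.5 and 82.2 CPM) and Lingo1, a brake on differentiation (187 and 254 CPM), were present in both. So were the chromatin genes Hdac2 (125 and 114 CPM), Chd7 (49.1 and 60.7 CPM), Chd8 (96.4 and 107 CPM) and Ep300 (238 and 301 CPM). Of the 18 genes of this list, 3 were higher in IP2 by 1.5-fold and 1 in IP1. Among all genes with 10 or more counts these shares were 13.7% and 18.1%, so the counts are not a result about the list. The 3 were Pdgfra, the prostaglandin synthase gene Ptgds (737 and 1164 CPM) and the receptor gene Notch1 (27.3 and 42.9 CPM), and the 1 was Cysltr1. These genes were picked after their values were seen.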
